A study of Mus musculus with 2 samples.

Results

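The Bcl2 family decides whether a cell keeps its mitochondria intact or dies. The 10 genes described here were chosen by symbol from the 32285 features of the gene tables, to hold the main opposing sides of this family in T cells. By role they fall into 4 pro-survival genes (Bcl2, Bcl2l1, Mcl1 and Bcl2a1b), 5 BH3-only genes (Bcl2l11, Bmf, Pmaip1, Bad and Bid) and 1 pore-forming gene (Bak1). The rule names symbols and uses no measured value, though the members were chosen with earlier results of these data known. All 10 were present in the tables of both libraries.

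Pro-survival proteins bind and hold back the pore-forming proteins Bak and Bax, which otherwise open the outer mitochondrial membrane and release cytochrome c. BH3-only proteins carry stress and cytokine signals to this pair by occupying the pro-survival proteins or by activating the pore formers directly. In regulatory T cells (Tregs), Mcl1 and Bcl2 are known survival factors, and Bim, the product of Bcl2l11, is known to limit their number, in particular when interleukin-2 is scarce.

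The series holds 2 droplet single-cell RNA libraries of splenic YFP+7AAD- cells from 7-day-old mice on the C57BL/6J strain, 1 from WT and 1 from KO (Zfp335fl/flFoxp3-Cre) animals. The study's methods state that the sorted cells were also CD4+. According to the study's methods both groups carry a YFP and Cre recombinase cassette in the Foxp3 gene, so that YFP marks cells that express Foxp3, the lineage factor of Tregs, and Cre acts in these cells. In KO mice the Cre deletes floxed Zfp335, which encodes a zinc finger transcription factor. How many mice contributed to each library was not stated, and with 1 library per genotype no difference between genotypes could be tested.

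Reads were tagged by droplet (the barcode) and by original transcript molecule (the unique molecular identifier, UMI). A level is the UMIs of a gene as counts per 1000000 UMIs (CPM), both summed over a class of barcodes. UMIs count molecules, so no scaling for transcript length was applied. Ratios are KO to WT. All ranges in parentheses are 95% intervals that cover counting error only, exact conditional binomial for ratios, exact Poisson for levels, Clopper-Pearson for shares and a normal approximation on the log scale where 2 genes are set against each other.

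After removal of barcodes with fewer than 300 genes or more than 5% mitochondrial UMIs and of presumed doublets, 7840 WT and 12790 KO barcodes remained, with medians of 5060 and 2725 UMIs. The mitochondrial limit took 44.6% of deposited WT and 24.1% of KO barcodes. The T-lineage clusters held 7298 WT and 12031 KO barcodes. Zfp335 served as a check of the labels and stood at 8.15 CPM in WT and 0.823 CPM in KO over the T lineage, a ratio of 0.101 (0.0710 to 0.140). In the small effector class it stood at 9.85 and 5.59 CPM, from 115 and 2 UMIs, a ratio of 0.568 (0.0680 to 2.10). Foxp3 stood at 40.7 and 44.7 CPM. The libraries shared 27 kept barcode sequences, and leaving these out gave T-lineage ratios of 1.98 for Bcl2 and 0.452 for Bcl2a1b, as with them. Erythroid markers summed to 538 CPM in WT and 3375 CPM in KO over the T lineage, with 9 of 9 higher in KO, and granulocyte markers to 337 and 855 CPM, again with 9 of 9 higher. B cell markers summed to 27.5 and 19.5 CPM, macrophage markers to 13.8 and 6.09 CPM and mast cell markers to 3.38 and 2.57 CPM. What part this RNA of other cells had in the results was not tested.

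The barcodes were clustered without the members, the apoptosis lists and the naming markers, so that classes did not rest on them. Classes were named by marker lists and are Treg-like only in that sense. The resting class, in which 7 of 8 resting markers were raised and Satb1 and Dapl1 were among the leading genes, held 2818 WT and 4735 KO barcodes with similar depth, medians of 3961 and 3723 UMIs. The activated class, with 5 of 9 activation markers raised and Nefh leading, held 745 and 1183 barcodes. The effector class, with 12 of 12 effector markers raised and Klrg1, Cxcr3 and Ccl5 among the leading genes, held 1640 and 68, the histone-led cycling class 570 and 708, and the cycling effector class, led by mitotic genes and Cxcr3, 333 and 283. Cluster 2, a shallow T-lineage cluster led by globin and granule genes, held 1077 WT and 3897 KO barcodes and was left unnamed, as were 3 further T-lineage clusters led by granule, Mpo or C1q genes. Without these unnamed clusters the T-lineage ratio of Bcl2 was 2.01. The effector class in KO rests on 68 barcodes and 357813 UMIs, and its KO values are correspondingly loose.

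Bcl2a1b belongs to a set of near-identical copies on chromosome 9, and its counts have to be read with this in mind. The stretches shown here lie before the RefSeq transcription starts of 3 of these copies (GRCm38.p6) and are given to show how little separates them. Capitals mark 6 bases that Bcl2a1d lacks in the alignment, within a repeat where their exact place is arbitrary.
Bcl2a1b, chr9:89199063-89199162, plus strand: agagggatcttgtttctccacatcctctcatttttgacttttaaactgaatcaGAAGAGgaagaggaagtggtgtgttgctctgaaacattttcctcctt
Bcl2a1a, chr9:88956754-88956853, plus strand: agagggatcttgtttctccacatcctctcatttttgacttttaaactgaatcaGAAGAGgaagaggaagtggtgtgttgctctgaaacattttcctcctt
Bcl2a1d, chr9:88731917-88732010, minus strand: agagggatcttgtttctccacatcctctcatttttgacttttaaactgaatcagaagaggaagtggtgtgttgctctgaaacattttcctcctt
The Bcl2a1b and Bcl2a1a stretches had 0 mismatches over 100 bases, and the 94 bases of Bcl2a1d had 0 mismatches beside the missing 6. The transcripts were alike as well. Of 451 windows of 50 bases in the last 500 bases of the Bcl2a1b transcript, 301 (66.7%) also occurred in Bcl2a1d and 206 (45.7%) in Bcl2a1a. Reads from such windows fit more than 1 gene and Cell Ranger does not count them, so the level of Bcl2a1b can be an underestimate and its split from Bcl2a1d is uncertain. Bcl2a1a had 8 WT and 4 KO UMIs over the T lineage, whereas Bcl2a1d could be followed beside Bcl2a1b.

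Over the whole T lineage, the KO library held more Bcl2 and less Bcl2a1b than the WT library. Bcl2 (chr1:106538178-106714274, minus strand, GRCm38), the founding pro-survival gene, stood at 156 CPM in WT and 310 CPM in KO, a ratio of 1.98 (1.93 to 2.04). Bcl2a1b (chr9:89199209-89207827, plus strand), the NF-kB-inducible member, stood at 149 and 67.1 CPM, a ratio of 0.452 (0.434 to 0.471). Of the 9 members with at least 50 UMIs, Bcl2 was past 1.5-fold higher and Bcl2a1b past 1.5-fold lower, and the other 7 lay between. Of all 12129 genes with 50 UMIs, 6.19% were past 1.5-fold higher in KO and 12.5% past 1.5-fold lower. The median log2 ratio was -0.27 over the 9 members and -0.07 over all genes. The members as a whole had no common direction.

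Within resting barcodes the differences were smaller. Bcl2 stood at 357 CPM in WT and 413 CPM in KO, a ratio of 1.16 (1.11 to 1.20). Mcl1 (chr3:95658788-95663176, plus strand), a short-lived pro-survival protein on which Tregs depend, stood at 351 and 371 CPM, a ratio of 1.06 (1.02 to 1.10). Bcl2l1, which encodes Bcl-xL, was the lowest of the pro-survival genes at 22.6 and 28.8 CPM, a ratio of 1.27 (1.10 to 1.48). Bcl2a1b stood at 67.4 and 40.9 CPM, a ratio of 0.607 (0.550 to 0.670). Bcl2a1b was the pro-survival gene that departed furthest from WT in resting barcodes, and Mcl1 the one that departed least.

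Of the 9 members with at least 50 UMIs in resting barcodes, 0 were past 1.5-fold higher and 2, Bcl2a1b and Bid, were past 1.5-fold lower, against 2.54% higher and 12.7% lower among 10469 genes. The median log2 ratio was -0.02 over these 9 members, -0.08 over all 10 and -0.12 over all genes with as many UMIs. On a scale that sets the median of all genes to 0, the median over the 10 members became 0.04 and the ratio of Bid 0.713, inside 1.5-fold.

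The level of Bcl2 varied more widely between classes in WT than in KO. In WT, Bcl2 stood at 357 CPM in resting, 144 CPM in the shallow globin cluster, 105 CPM in activated, 100.0 CPM in effector, 68.3 CPM in cycling and 46.8 CPM in cycling effector barcodes. In KO the corresponding levels were 413, 295, 223, 151, 215 and 217 CPM. The activated level was 0.294 (0.273 to 0.317) of the resting level in WT and 0.539 (0.514 to 0.565) in KO, and the cycling level was 0.191 (0.176 to 0.208) of the resting level in WT and 0.521 (0.494 to 0.549) in KO. In WT the activated and effector levels overlapped within counting error, and in KO the activated, cycling and cycling effector levels did.

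**Figure D1:**
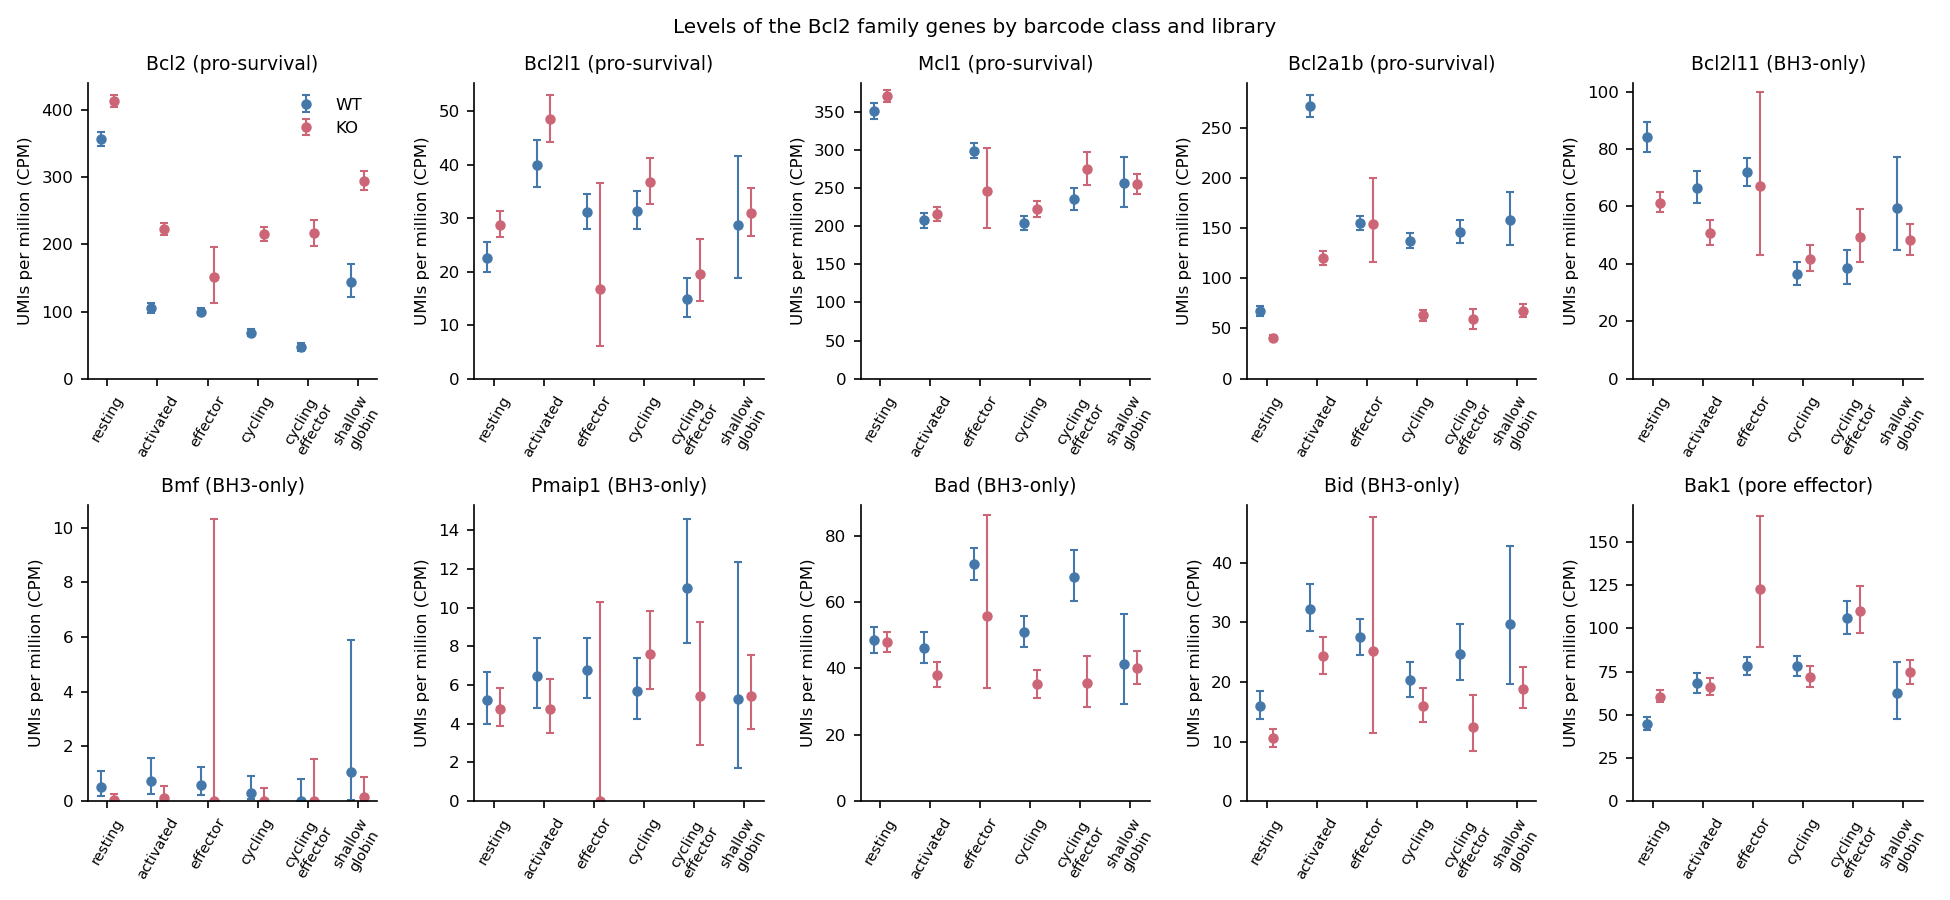
Level of each of the 10 Bcl2 family genes (vertical axis, CPM, starting at 0) in 6 barcode classes of the WT (blue) and KO (red) library, with exact Poisson 95% intervals. Bcl2 drops from 357 to 46.8 CPM between resting and cycling effector barcodes in WT and from 413 to 217 CPM in KO, while Bcl2a1b is highest in activated barcodes in WT (271 CPM). In KO its highest point is the effector class, at 154 CPM (116 to 200) from 55 UMIs, an interval that covers the KO activated level of 120 CPM.

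Bcl2 was therefore higher in KO in 6 of 6 classes, with ratios from 1.16 in resting to 4.63 (3.94 to 5.47) in cycling effector barcodes. The ratio was 2.12 (1.96 to 2.30) in activated, 1.51 (1.13 to 1.98) in effector, 3.15 (2.87 to 3.45) in cycling and 2.05 (1.72 to 2.45) in shallow globin barcodes. Free RNA in the droplets gives some UMIs in cells that do not express a gene. Erythroid barcodes, which should hold little Bcl2, had 22.5 CPM (17.2 to 29.0) in WT and 81.7 CPM (70.8 to 93.8) in KO, in each library below each of the 6 classes. The erythroid ratio was 3.63 (2.71 to 4.93), above the ratio of every class but cycling effector. What part free RNA had in the class ratios was not tested. At an equal depth of 1000 UMIs per barcode, 9 of 238 WT and 74 of 486 KO erythroid barcodes had a Bcl2 UMI, 3.78% (1.74 to 7.06) and 15.2% (12.2 to 18.7). At this depth, 28.8% (27.1 to 30.5) of WT and 31.8% (30.4 to 33.1) of KO resting barcodes and 11.5% (9.34 to 14.1) of WT and 22.0% (19.7 to 24.5) of KO activated barcodes had one. In effector barcodes the shares were 8.82% (7.49 to 10.3) in WT and 11.8% (5.22 to 21.9) in KO, the latter not above the KO erythroid share. Thinning left out 65 WT and 56 KO resting barcodes and 0 and 1 activated ones. Without thinning, Bcl2 was seen in 62.7% (60.9 to 64.5) of WT and 68.5% (67.2 to 69.9) of KO resting barcodes, at median depths of 3961 and 3723 UMIs.

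The classes with the widest Bcl2 differences also differed in makeup between the libraries. The 12 effector markers summed to 3630 CPM in WT and 1059 CPM in KO activated barcodes, with 12 of 12 lower in KO, and to 4971 and 1588 CPM in cycling barcodes, with 11 of 12 lower. In cycling effector barcodes they summed to 5834 and 2213 CPM, 12 of 12 lower, of which 2 were at 0 in KO. In resting barcodes the sums were 1430 and 1052 CPM, with 11 of 12 lower. The 8 resting markers went the other way, at 743 and 1155 CPM in activated and 931 and 1432 CPM in cycling barcodes, with 8 of 8 higher in KO in both. The part of this makeup in the Bcl2 ratios was not tested beyond the finer clusters described next.

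A finer clustering at resolution 1.0, examined after the first values were known, split the T lineage further, and 9 of its clusters held at least 50 barcodes in each library. The libraries filled these finer clusters differently. Of resting barcodes, 65.7% of WT and 22.0% of KO lay in the finer resting cluster, and 18.2% and 55.8% in a cluster led by Drc1 and Ly6c1. Of cycling barcodes, 27.7% of WT and 93.1% of KO lay in the S-phase cluster led by Hist1h2af, and 70.9% and 6.78% in finer cluster 11. Of cycling effector barcodes, 17.4% of WT and 91.2% of KO lay in finer cluster 14, and 81.7% and 7.07% in finer cluster 10. Finer clusters 10 and 11, which held most WT barcodes of these classes, were not among the 9 clusters compared. Of shallow globin barcodes, 17.4% of WT and 90.4% of KO lay in finer cluster 1, and 79.8% and 5.47% in finer cluster 7, both led by Hba-a1. The S-phase cluster had 160 WT and 664 KO barcodes and effector marker sums of 1748 and 1367 CPM. Bcl2 there was 179 CPM in WT and 236 CPM in KO, a ratio of 1.32 (1.17 to 1.501), against 3.15 in the coarser cycling class. The mitotic finer cluster 14, led by Nek2, with 58 and 259 barcodes and effector marker sums of 3206 and 1812 CPM, kept a wider difference. Bcl2 there was 103 and 240 CPM, a ratio of 2.33 (1.78 to 3.09). In the finer activated cluster the ratio was 1.81 (1.67 to 1.95), with effector marker sums of 2660 CPM in WT and 1042 CPM in KO. In the finer resting cluster it was 1.07 (1.01 to 1.14), with sums of 1294 and 704 CPM. In finer cluster 1 the ratio was 1.10 (0.879 to 1.395), with sums of 2468 and 1302 CPM. In finer cluster 7 it was 2.21 (1.49 to 3.27), with sums of 3332 and 1663 CPM. These 4 clusters thus still differed in effector makeup between the libraries. Bcl2 was higher in KO in 9 of 9 finer clusters, with its interval above 1 in 8 of them. With KO class levels averaged at the class weights of the WT library, the T-lineage ratio of Bcl2 was 1.62 instead of 1.98. The size of the Bcl2 difference thus changed with how finely states were separated, and its direction did not in the 9 finer clusters compared.

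**Figure D2:**
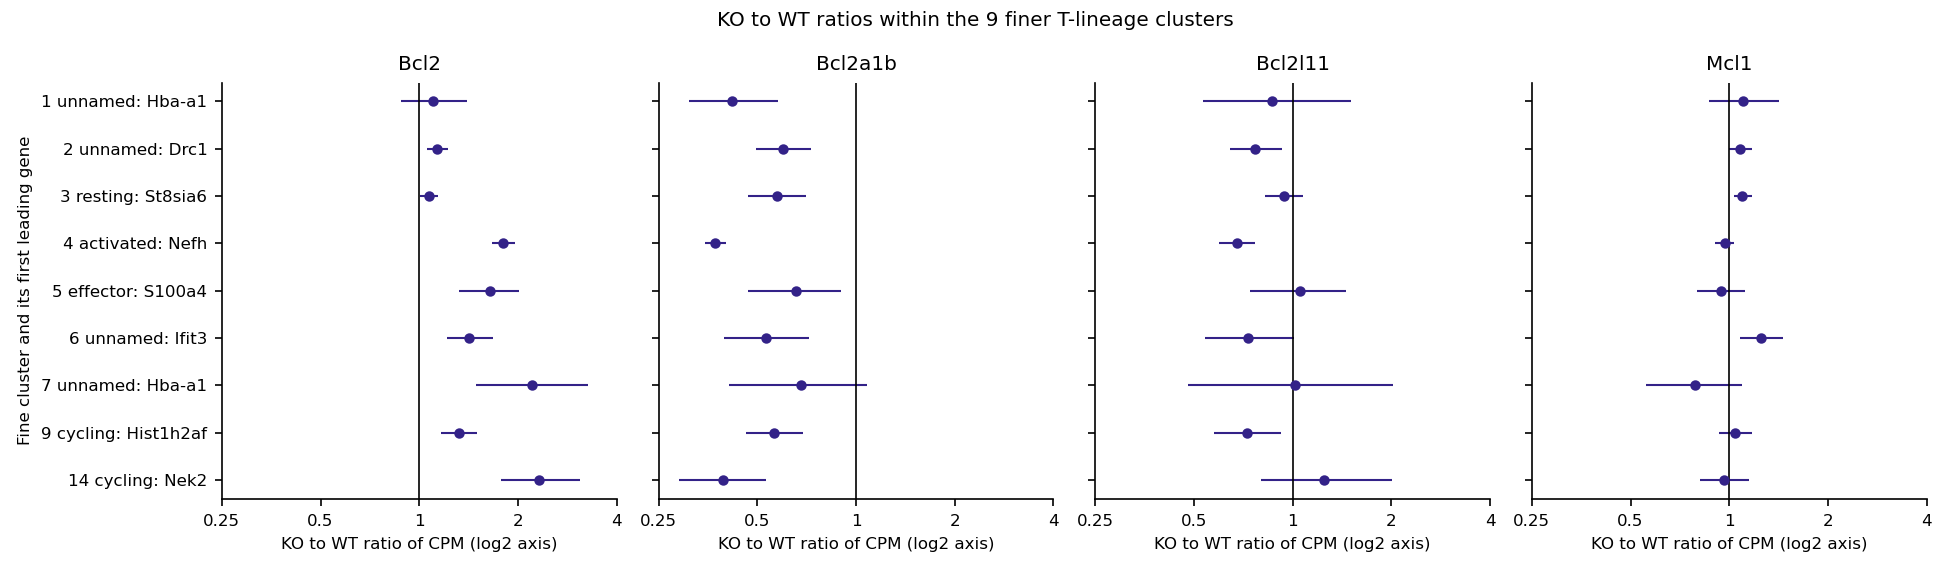
KO to WT ratio of CPM (horizontal log2 axis, exact 95% counting intervals) of Bcl2, Bcl2a1b, Bcl2l11 and Mcl1 within 9 finer T-lineage clusters, each labelled by its number, class and first leading gene. Bcl2 lies to the right of 1 and Bcl2a1b to the left of 1 in all 9 clusters, whereas Bcl2l11 and Mcl1 lie on both sides.

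Bcl2a1b ran opposite to Bcl2. In WT its level was 67.4 CPM in resting, 271 CPM in activated, 155 CPM in effector, 137 CPM in cycling and 146 CPM in cycling effector barcodes. In KO it was 40.9, 120, 154, 62.9 and 59.3 CPM in the same order. The activated class thus held the most Bcl2a1b in WT, 4.03 times (3.71 to 4.37) its resting level, and in KO the activated level was 2.94 times (2.69 to 3.21) the resting level. Erythroid barcodes held 22.9 CPM in WT and 23.6 CPM in KO. The ratio was 0.443 (0.413 to 0.475) in activated, 0.458 (0.412 to 0.509) in cycling, 0.406 (0.336 to 0.488) in cycling effector and 0.426 (0.353 to 0.518) in shallow globin barcodes. It was 0.991 (0.744 to 1.30) in the effector class, where 55 KO UMIs were counted. In the finer effector cluster, with 1605 WT and 85 KO barcodes, it was 0.656 (0.467 to 0.899). Over the 9 finer clusters Bcl2a1b was lower in KO in 9, with its interval below 1 in 8.

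The copy Bcl2a1d was likewise lower in KO, in 6 of 6 classes, at a lower level. It stood at 52.0 CPM in WT and 23.4 CPM in KO over the T lineage, a ratio of 0.449 (0.418 to 0.482), and its ratio was 0.618 (0.508 to 0.750) in resting and 0.393 (0.349 to 0.442) in activated barcodes.

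Mcl1 and Bcl2l1 lay nearer to WT than Bcl2 and Bcl2a1b did in most classes. Mcl1 was 351 CPM in resting, 208 CPM in activated, 299 CPM in effector, 204 CPM in cycling and 235 CPM in cycling effector barcodes of WT, and 371, 216, 246, 222 and 275 CPM in KO. Its ratios lay between 0.823 (0.659 to 1.02) in effector and 1.17 (1.06 to 1.29) in cycling effector barcodes. Bcl2l1 was highest in activated barcodes, from 329 WT and 490 KO UMIs, a ratio of 1.21 (1.05 to 1.40). In effector barcodes its ratio was 0.540 (0.197 to 1.19), from 363 and 6 UMIs. Its higher level in KO did not hold at the finer resolution, where it was higher in 3 and lower in 5 of 8 clusters with enough UMIs, and 0.936 (0.703 to 1.24) in the resting cluster. Erythroid barcodes, which use Bcl-xL, held more of it than T-lineage barcodes, 40.9 CPM in WT and 84.5 CPM in KO.

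The 4 pro-survival genes summed to similar totals in resting and activated barcodes but differed in makeup. They gave 798 CPM in WT and 854 CPM in KO resting barcodes, and 624 and 607 CPM in activated barcodes. In cycling barcodes the totals were 441 and 537 CPM and in cycling effector barcodes 443 and 571 CPM. Set against the 5 BH3-only genes, there were 5.17 pro-survival UMIs per BH3-only UMI in WT and 6.85 in KO resting barcodes, 4.10 and 5.15 in activated, 3.88 and 5.34 in cycling and 3.12 and 5.56 in cycling effector barcodes. This quotient was higher in KO in each of these classes, and in effector barcodes it was 3.29 and 3.83. It has no interval and covers the members only, so it leaves out Bcl2a1d and the BH3-only genes Bbc3 and Bik. In cycling barcodes Bcl2a1d stood at 51.5 CPM in WT and 26.4 CPM in KO, Bbc3 at 3.36 and 19.99 CPM and Bik at 9.87 and 5.80 CPM. In WT activated barcodes Bcl2a1b supplied 43.5% (42.1 to 44.9) of the pro-survival UMIs, Mcl1 33.3% (32.0 to 34.6) and Bcl2 16.8% (15.8 to 17.9). In KO activated barcodes Bcl2 supplied 36.7% (35.5 to 37.9), Mcl1 35.6% (34.4 to 36.8) and Bcl2a1b 19.8% (18.8 to 20.8). The leading pro-survival transcript of activated barcodes was thus Bcl2a1b in WT, and Bcl2 and Mcl1 within counting error of each other in KO. In resting barcodes the shares were closer, with Bcl2 at 44.8% (43.8 to 45.8) in WT and 48.4% (47.7 to 49.2) in KO.

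**Figure D3:**
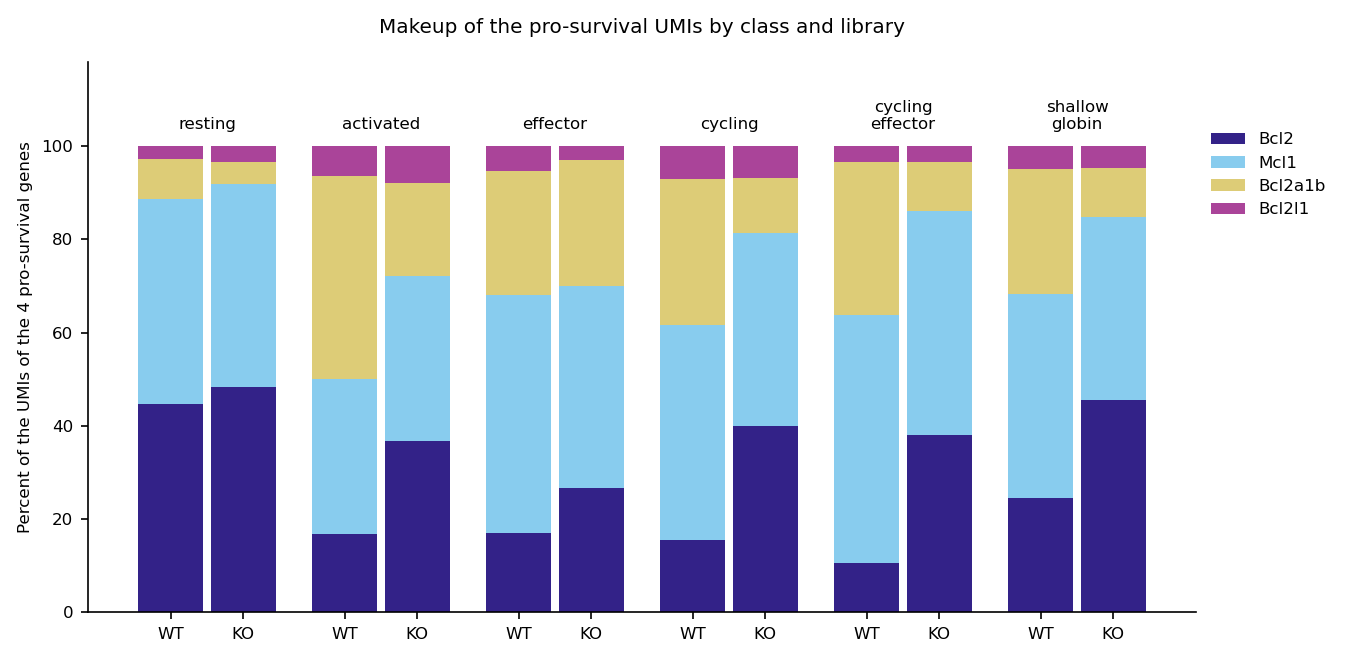
Percent of the UMIs of the 4 pro-survival genes that came from each gene (vertical axis, 0 to 100) in 6 barcode classes of the WT and KO library. Bcl2 takes 16.8% in WT and 36.7% in KO activated barcodes and 10.6% and 38.0% in cycling effector barcodes, mostly in place of Bcl2a1b.

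Among the BH3-only genes, Bcl2l11 (chr2:128126038-128162547, plus strand) encodes Bim, which can bind all pro-survival members. It was the most abundant of them in resting barcodes of both libraries and the only one whose interval lay below 1 in some of the 6 classes and above 1 in another. It stood at 84.2 CPM in WT and 61.3 CPM in KO resting barcodes, a ratio of 0.729 (0.670 to 0.793), and at 66.5 and 50.8 CPM in activated barcodes, a ratio of 0.763 (0.675 to 0.863). In cycling effector barcodes it stood at 38.5 and 49.3 CPM, a ratio of 1.28 (1.00 to 1.63), and in cycling barcodes at 36.5 and 41.8 CPM, a ratio of 1.14 (0.980 to 1.34). WT barcodes therefore held 0.434 (0.383 to 0.491) of the resting level of Bcl2l11 when cycling, and KO barcodes 0.681 (0.601 to 0.771). Erythroid barcodes held 28.5 CPM of Bcl2l11 in WT and 19.9 CPM in KO. The resting difference narrowed to 0.943 (0.824 to 1.08) in the finer resting cluster and was 0.770 (0.643 to 0.928) in the finer cluster led by Drc1 and Ly6c1. WT barcodes held 91.9 CPM of Bcl2l11 in the former and 65.8 CPM in the latter, where most KO resting barcodes lay. In the finer S-phase cluster Bcl2l11 was lower in KO, at 0.724 (0.574 to 0.920), opposite to the coarser cycling class.

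The resting class put 23.6 Bcl2l11 UMIs beside every 100 Bcl2 UMIs in WT and 14.9 in KO. The log2 difference of this ratio was -0.67 (-0.80 to -0.53), a quantity from which the library total cancels, and it became -0.19 in the finer resting cluster. In activated barcodes there were 63.3 and 22.8 Bcl2l11 UMIs per 100 Bcl2 UMIs, a log2 difference of -1.47 (-1.68 to -1.27), and in cycling barcodes 53.5 and 19.4, a log2 difference of -1.46 (-1.71 to -1.21). Bcl2l11 itself was not lower in KO cycling barcodes, where Bcl2 was 3.15 times the WT level.

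Bid (chr6:120891930-120916853, minus strand), which links caspase-8 to the mitochondria, was lower in KO in 6 of 6 classes, with its interval below 1 in 5. It stood at 16.1 and 10.6 CPM in resting barcodes, a ratio of 0.657 (0.537 to 0.803), and at 24.7 and 12.5 CPM in cycling effector barcodes, a ratio of 0.506 (0.326 to 0.764). At the finer resolution it was lower in 6 of 7 clusters with enough UMIs, with its interval below 1 in 2 of them. Bad, a BH3-only protein held in check by growth factor signalling, stood at 48.4 and 47.8 CPM in resting barcodes, a ratio of 0.988 (0.890 to 1.10). In the finer resting cluster it stood at 47.75 and 36.5 CPM, a ratio of 0.765 (0.625 to 0.933). It was lower in KO in cycling barcodes, at 51.0 and 35.2 CPM, a ratio of 0.690 (0.593 to 0.802), and in cycling effector barcodes, at 0.524 (0.407 to 0.669). The finer S-phase cluster gave 0.906 (0.686 to 1.21) for Bad and the mitotic cluster 0.476 (0.326 to 0.705).

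The other BH3-only genes were scarce. Pmaip1, which encodes Noxa, an antagonist of Mcl1, stood at 5.21 CPM in WT and 4.77 CPM in KO resting barcodes, from 62 and 95 UMIs, a ratio of 0.916 (0.658 to 1.28). In KO effector barcodes 0 UMIs of Pmaip1 were counted, which allows up to 8.38 CPM, so the WT level of 6.76 CPM was not detectable at this depth. Bmf, which responds to loss of cell attachment, was listed with 26 WT and 4 KO UMIs over the T lineage, 0.553 and 0.0823 CPM, a ratio of 0.149 (0.0377 to 0.429). It was under 50 UMIs and entered no count of genes past a fold.

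Bak1 (chr17:27019810-27029009, minus strand), the pore former among the members, stood at 44.7 CPM in WT and 60.5 CPM in KO resting barcodes, a ratio of 1.35 (1.22 to 1.501). In activated barcodes it stood at 68.1 and 66.1 CPM, a ratio of 0.971 (0.867 to 1.09), and in effector barcodes at 78.0 and 123 CPM, a ratio of 1.58 (1.14 to 2.13). Over the T lineage its level was even, 70.0 and 68.3 CPM. At the finer resolution Bak1 was higher in KO in 9 of 9 clusters, with its interval above 1 in 4 and ratios from 1.03 to 1.63. At WT class weights its T-lineage ratio became 1.21. In WT, Bak1 was lowest in resting and highest in cycling effector barcodes, at 44.7 and 106 CPM, the reverse of Bcl2.

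**Figure D4:**
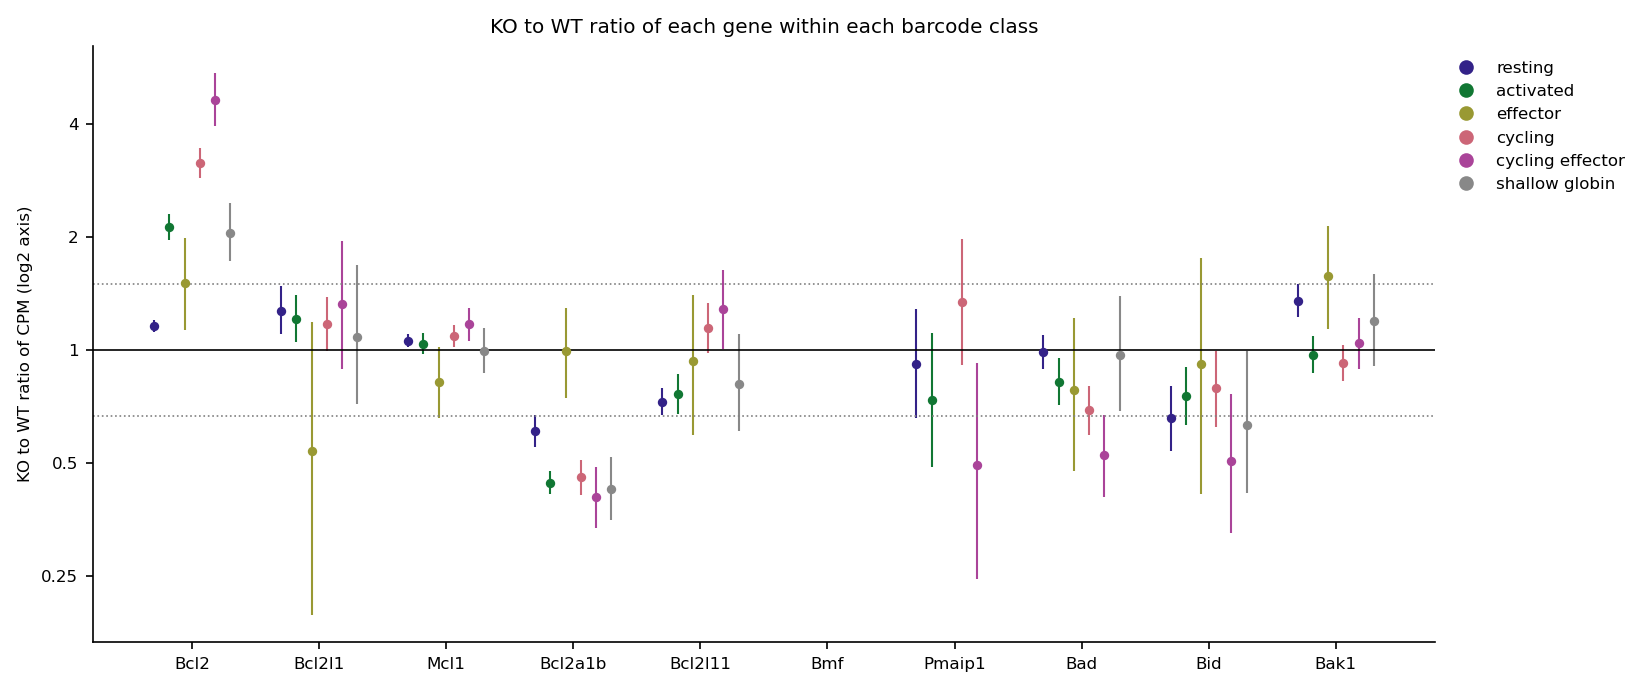
KO to WT ratio of CPM (vertical log2 axis) of each Bcl2 family gene in 6 barcode classes, with exact 95% counting intervals, a line at 1 and dotted lines at 1.5-fold; points with fewer than 50 UMIs or 0 KO UMIs are left out, which removes Bmf. All Bcl2 points lie above 1, and all Bcl2a1b, Bad and Bid points lie at or below 1.

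The members past 1.5-fold are given here by class. In activated barcodes 1 of 9 was higher (Bcl2) and 1 lower (Bcl2a1b), against 4.70% and 11.2% of all genes. In effector barcodes 2 were higher (Bcl2 and Bak1) and 2 lower (Bcl2l1 and Pmaip1), against 11.9% and 21.3%. Pmaip1 is counted there on 0 KO UMIs, and its WT level was not detectable at that depth. In cycling barcodes 1 was higher (Bcl2) and 1 lower (Bcl2a1b), against 8.11% and 8.41%. In cycling effector barcodes 1 was higher (Bcl2) and 4 lower (Bcl2a1b, Pmaip1, Bad and Bid), against 9.79% and 10.8%. In shallow globin barcodes 1 of 8 was higher (Bcl2) and 2 lower (Bcl2a1b and Bid), against 8.20% and 12.6%.

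Other genes of the apoptosis pathway were followed in 4 lists. Of 12 further Bcl2 family genes, 8 had enough UMIs in resting barcodes. Of these, 1 was past 1.5-fold higher and 3 lower, against 2.54% and 12.7% of all genes. The higher gene was Bbc3, which encodes the p53-inducible BH3-only protein Puma. It stood at 10.9 CPM in WT and 18.8 CPM in KO, a ratio of 1.73 (1.41 to 2.13). The lower genes were Bcl2a1d, the BH3-only gene Bik at 3.62 and 1.71 CPM, a ratio of 0.472 (0.292 to 0.758), and the mitophagy gene Bnip3 at 4.21 and 2.61 CPM, a ratio of 0.621 (0.413 to 0.935).

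Bbc3 stood further above WT in the dividing and activated classes than in resting barcodes. The ratio was 3.39 (2.59 to 4.49) in activated, 5.95 (4.05 to 9.004) in cycling and 7.20 (4.10 to 13.4) in cycling effector barcodes, from 67 and 279, 32 and 155, and 16 and 62 UMIs. In cycling barcodes the level was 3.36 CPM in WT and 19.99 CPM in KO. The effector class had 132 WT UMIs and 1 KO UMI, a ratio of 0.247 (0.00621 to 1.40), too few KO UMIs to give a direction. Bax, the second pore former, named here after its values were seen, was 200 CPM in WT and 304 CPM in KO over the T lineage, a ratio of 1.52 (1.49 to 1.56), and 1.35 (1.28 to 1.42) in resting barcodes. Trp53, also named after its values were seen, was higher in KO in 5 of 6 classes, with its interval above 1 in 4. Its ratio was 1.02 (0.947 to 1.09) in resting, 1.22 (1.12 to 1.33) in activated, 1.34 (1.22 to 1.48) in cycling and 1.37 (1.17 to 1.60) in cycling effector barcodes. These are transcript levels, and what part p53 had in the ratios was not tested.

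The Bbc3 promoter is shown where it holds a spaced pair of p53-type core letters, CAAGNNNNNNCTTG, in capitals, 94 bases before a RefSeq start (GRCm38.p6, plus strand).
Bbc3, chr7:16309466-16309525: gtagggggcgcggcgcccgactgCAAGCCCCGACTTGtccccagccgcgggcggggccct
The search covered both strands of windows from 250 bases before to 50 bases after each RefSeq start. The pattern occurred in 185 of 32851 windows (0.563%), in 1 of 3 Bbc3 windows and in 0 of the 9 members that had a window. Pmaip1 had no window. The pattern is a fixed string, so its absence does not show that a window lacks other p53-type letters. A match of letters is a description of the window and no evidence that a factor binds there.

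Of 17 genes of the apoptosome, caspases and inhibitors of apoptosis, 17 had enough UMIs in resting barcodes and 0 were past 1.5-fold in either direction. The shares of all genes in resting barcodes, for this list and those below, were 2.54% higher and 12.7% lower. Of 11 death receptor genes, Fasl was lower in resting barcodes, at 2.94 and 1.71 CPM, a ratio of 0.580 (0.351 to 0.958), and the other 10 lay within 1.5-fold. Of 17 cytokine receptor and transcription factor genes, 0 were past 1.5-fold in resting barcodes, whereas 3 were higher in KO over the T lineage, against 6.19% of all genes, and 8 in cycling effector barcodes, against 9.79%. The 3 of the T lineage, named after their values were seen, were Il2ra, a subunit of the interleukin-2 receptor, at 1.52 (1.47 to 1.57), and the stress response factors Atf4, at 1.58 (1.52 to 1.63), and Ddit3, at 1.84 (1.71 to 1.97).

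Across 13 sums of T-lineage cluster and library with at least 100 barcodes, the genes whose log2 CPM followed Bcl2 most closely among 10149 genes were Slc38a2 (Pearson r 0.97), Ecm1 (0.97) and 1700019L13Rik (0.96). Those closest to Mcl1 were Arid4b (0.98), Arid4a (0.97) and Utrn (0.97), and those closest to Bcl2l11 were Stat6 (0.95), Hibadh (0.93) and Zfp62 (0.93). Among the members, r with Bcl2 was 0.52 for Mcl1, 0.24 for Bcl2l11, 0.16 for Bcl2l1, -0.46 for Pmaip1, -0.52 for Bad, -0.59 for Bak1, -0.59 for Bid and -0.78 for Bcl2a1b. The sums share libraries and differ in depth, so these values describe the pattern and no more.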

How the data were processed

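Splenic YFP+7AAD- cells of WT and KO mice, also sorted as CD4+ according to the study's methods, were profiled on a droplet platform. There was 1 library per genotype, so groups come from the genotype labels and no test between genotypes was possible. The authors deposited UMI counts per gene and barcode, made with Cell Ranger 5.0.1 on mm10, with 64567991 WT and 65480052 KO UMIs in 14524 and 18134 barcodes. Barcodes detecting fewer than 300 genes or carrying over 5% mitochondrial UMIs were dropped from these counts, which left 8053 and 13767. Scrublet scores, computed in each library over all deposited barcodes, were used to remove the top 5% of WT and 8% of KO barcodes (726 and 1451). Barcodes were scaled to 10000 UMIs, logged and clustered jointly without integration on 2000 variable genes, 30 components and 20 neighbours at Leiden resolution 0.5 (scanpy 1.11.5, scikit-learn 1.9.0, igraph 0.11.9, numpy 2.4.6, pandas 2.3.3).

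A cluster was T-lineage when its mean T-gene CPM reached 50% of the median cluster, and it was named when at least 3 markers and 50% of a fixed list were raised 1.5-fold over other T-lineage clusters and at least 1 was among its 10 leading genes, a scoring rule set after the data were seen. UMIs were summed by class and library, and genes with at least 50 UMIs entered counts past 1.5-fold. Intervals used scipy 1.17.1, and 0.5 UMIs were added for log2 medians. All 10 members were named, with list genes past 1.5-fold in resting barcodes and the 3 genes most like Bcl2, Bcl2l11 and Mcl1. Ddit3 had 2 feature entries, of which the first was used. The members and lists were chosen with earlier results of these data known. Alternatives varied doublets, filters, resolution, scale, depth and weights. The counting script was tested on simulated data. Figures used matplotlib 3.10.9 and sequences biopython 1.88.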

Additional observations from a re-analysis of the deposited data

Results flagged for a closer look

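Barcodes over 5% mitochondrial UMIs entered no comparison, yet they held Bcl2 above the level of every class kept in each library. The 5955 WT and 3890 KO barcodes of this kind that passed the other filters had 393.9 and 685.3 CPM of Bcl2, with T-lineage genes at a mean of 643 and 721 CPM and medians of 1245 and 1322 UMIs. Their Bcl2a1b stood at 90.1 and 47.5 CPM and their Bcl2l11 at 116 and 94.4 CPM.

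The Bcl2l11 ratio of KO to WT was 1.28 in cycling effector barcodes but 0.729 in resting and 0.763 in activated barcodes. With 1 library per genotype the difference between these classes was not tested.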

How the results depend on the processing

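No paired analysis was possible because there is 1 library per genotype, and no replicate could be left out. The median log2 ratio of the 10 members in resting barcodes, -0.08, lay between -0.13 and 0.04 over the alternatives. The 2 members past 1.5-fold in resting barcodes became 1 with 10% mitochondrial UMIs allowed, with the mean of single-barcode CPM, with the median of all genes set to 0 and with barcodes thinned to 1000 UMIs, and 0 at 2-fold. The log2 difference of Bcl2l11 to Bcl2 in resting barcodes, -0.67, became -0.19 at Leiden resolution 1.0. Over the T lineage, Bcl2 stayed above 1 in 11 of 11 alternatives, from 1.30 in barcodes of 2000 to 6000 UMIs to 2.08 on the median scale, and Bcl2a1b stayed past 1.5-fold lower in 11 of 11, from 0.449 to 0.609. Bak1 kept its side of 1 in 6 of 11, from 0.962 to 1.31. Alternatives for activated and cycling barcodes, class weights, unnamed clusters and shared barcodes were added after the data were seen. They gave Bcl2 ratios of 1.71 to 1.95 in activated barcodes, all below the 2.12 reported, and of 1.49 to 3.60 in cycling ones. The causes were not tested.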
